A study of Mus musculus with 13 samples.

Results

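Expression of 5 chemokine receptor genes, Cx3cr1, Ccr1, Ccr2, Cxcr4 and Ccrl2, was followed across macrophages of the mouse sciatic nerve and optic nerve and microglia of the brain. They were chosen by symbol, and all 5 were found among the 48587 genes of the count table. RNA sequencing libraries came from sciatic nerve macrophages (4), optic nerve macrophages (4) and brain microglia (5), and total counts ran from 15.7 to 18.2 M, from 16.5 to 20.4 M and from 10.9 to 23.5 M per library. Levels are given as CPM, the read counts per M counts of a library after TMM scaling. All 13 libraries were labelled as the C57BL/6J strain, and the labels used here give no treatment, genotype, age, sex or sorting gate and do not name the animals behind the replicates. The p-values therefore measure the spread between these libraries, which may be technical. The sciatic nerve belongs to the peripheral nervous system and the optic nerve to the central nervous system, and the study asks how macrophages of these sites differ.

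Chemokine receptors are membrane proteins with a bundle of helices that couple to inhibitory G proteins and steer leukocytes along gradients of small secreted chemokines. CX3CR1 binds fractalkine (Cx3cl1), much of which neurons make in the brain, and is a standard marker of microglia. CCR2 binds Ccl2 and related chemokines and is needed for monocytes to leave the bone marrow. CCR1 binds several inflammatory CC chemokines, among them Ccl3 and Ccl5, CXCR4 binds Cxcl12, and CCRL2 is an atypical receptor that binds chemerin (Rarres2) and does not give the usual G protein signal.

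Cx3cr1 was highest in brain microglia, Ccr1, Ccr2 and Cxcr4 were highest in sciatic nerve macrophages, and Ccrl2 was high in both nerves. Between sciatic nerve and brain, 4 receptors rose and 1 fell, where 48.4% of all 13246 tested genes were called (24.1% higher, 24.3% lower) by edgeR's quasi-likelihood test at a Benjamini-Hochberg adjusted p under 0.05. Between optic nerve and brain 3 rose, 1 fell and 1 was not called, where 36.9% of all genes were called (19.6% higher, 17.4% lower). Between sciatic and optic nerve 3 rose, 1 fell and 1 was not called, against 21.8% of all genes (10.9% higher, 10.9% lower). The libraries of the tissues did not overlap for 5 of 5 receptors between sciatic nerve and brain, for 4 of 5 between optic nerve and brain and for 4 of 5 between sciatic and optic nerve, where this held for 41.3%, 31.8% and 29.9% of all genes. The median log2 fold change of the 5 receptors was 4.58, 2.71 and 1.25 in the same order, and that of all genes was -0.09, -0.08 and 0.0029. All 5 passed the filter on low counts. Cxcr4 passed it through the nerve libraries, so that its difference from brain was bound to be large.

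**Figure D1:**
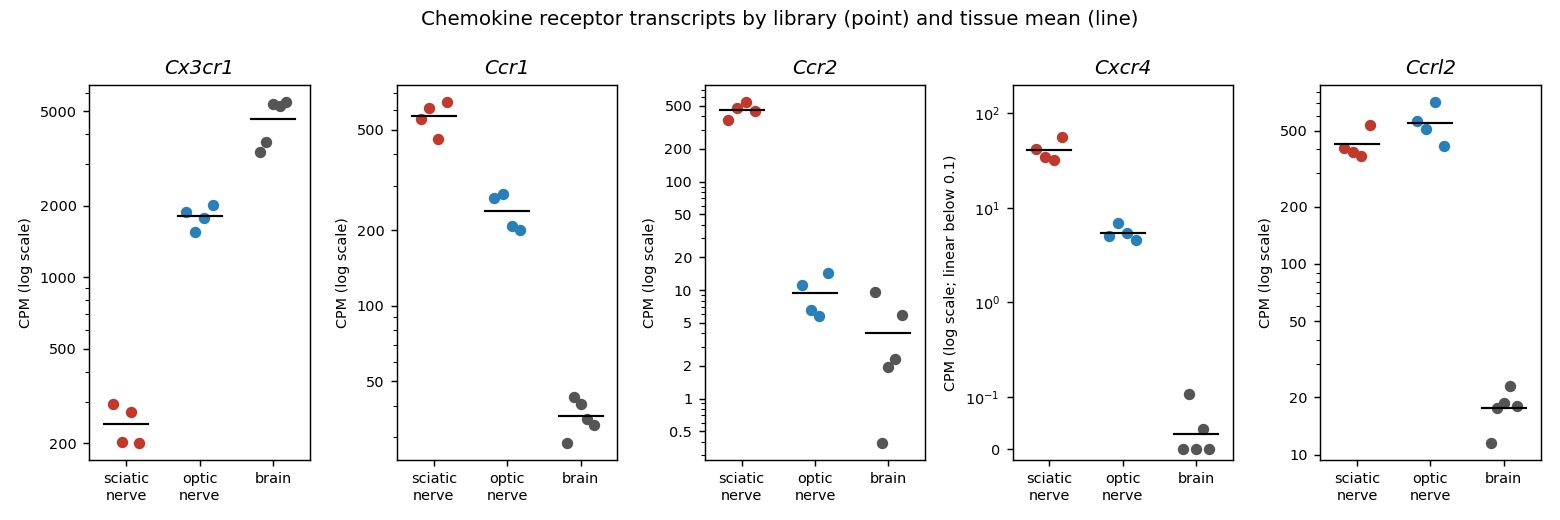
Level of each receptor gene in every library, in CPM on a log axis, linear below 0.1 for Cxcr4. Points are the 4 sciatic nerve, 4 optic nerve and 5 brain libraries and lines are the tissue means; the tissues do not overlap for Cx3cr1, Ccr1 and Cxcr4, optic nerve and brain overlap for Ccr2, and both nerves overlap for Ccrl2.

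The macrophage identity of the libraries was checked with marker genes. The summed level of 9 pan-macrophage genes, among them the growth factor receptor Csf1r, ranged from 25740 to 28900 CPM in sciatic nerve, from 35780 to 45570 CPM in optic nerve and from 29380 to 39610 CPM in brain. The 9 microglia markers summed to between 2884 and 3239 CPM in sciatic nerve, 30010 and 34650 CPM in optic nerve, and 33040 and 60290 CPM in brain. Of these 9 markers, 9 fell in sciatic nerve and 7 in optic nerve relative to brain, and 8 fell in sciatic relative to optic nerve. Of the 9 pan-macrophage genes, 6 fell and 1 rose in sciatic nerve relative to brain, 2 fell and 1 rose in optic nerve relative to brain, and 6 fell and 1 rose in sciatic relative to optic nerve. The 3 of 9 pan-macrophage genes called for optic nerve against brain fall below the 36.9% called among all genes, and the other comparisons stand against 48.4% and 21.8%. The columns taken as brain carry an unexplained prefix and were assigned by elimination, as the group of 5. Brain replicates 1 and 2 were set apart from the others in microglia markers, at 33040 and 43990 CPM against 59480 to 60290 CPM in replicates 3 to 5. Replicate 1 also had the lowest depth and 3.79% of its counts on mitochondrially encoded genes, against at most 1.24% in any other library.

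Cx3cr1 lies on the minus strand of chromosome 9 (GRCm38, RefSeq span chr9:120048683-120068296) and Ccr2 on the plus strand of the same chromosome (chr9:124101918-124109140). The promoter windows of Cx3cr1 and Ccrl2, from 250 bases before to 50 bases after a RefSeq start (GRCm38.p6), are shown because these 2 genes differed from brain in opposite directions in both nerves. Ccr1 and Cxcr4 also rose in both nerves, and their windows are not printed. Of the Ccrl2 windows, the only one with a motif match is the one printed. Capitals mark a match to the consensus of NF-kappaB (the kappaB motif).
Cx3cr1 (minus strand, chr9:120068247-120068546): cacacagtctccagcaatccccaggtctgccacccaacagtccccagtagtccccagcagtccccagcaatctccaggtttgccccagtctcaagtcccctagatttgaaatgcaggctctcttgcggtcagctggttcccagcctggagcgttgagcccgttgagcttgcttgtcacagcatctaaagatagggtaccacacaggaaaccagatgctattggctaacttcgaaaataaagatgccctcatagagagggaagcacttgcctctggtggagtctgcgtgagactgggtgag
Ccrl2 (minus strand, chr9:111057469-111057768): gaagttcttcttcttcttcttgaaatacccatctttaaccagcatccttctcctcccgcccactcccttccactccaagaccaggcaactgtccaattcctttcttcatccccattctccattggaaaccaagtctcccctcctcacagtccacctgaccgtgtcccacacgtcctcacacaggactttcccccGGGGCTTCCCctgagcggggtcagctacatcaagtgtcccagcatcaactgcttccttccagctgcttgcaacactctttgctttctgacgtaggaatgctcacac

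All 5 genes have a window, 7 windows in all, and each was searched on both strands for the core of PU.1 (GAGGAA), AP-1 (TGANTCA), an interferon regulatory factor motif (GAAA, any 2 bases, GAAA), the kappaB motif and the TATA box (TATAAA). Only 3 windows held any match to these motifs. Of the 3 Ccrl2 windows the one above held the kappaB motif at -56 to -47 and the other two held no match. The window of Ccr1 held GAGGAA at -129 to -124, and that of Cxcr4 held TATAAA at -30 to -25 and, overlapping it on the other strand, at -32 to -27. Of all 32851 windows in the table, 4.51% held the kappaB motif, 28.3% GAGGAA and 13.6% TATAAA. AP-1 and interferon regulatory factor motifs, found in 7.81% and 3.44% of all windows, were in none of the 7. These are matches of letters, and no binding was measured. The start used for the Ccr2 window lies downstream of the first base of the RefSeq span, so that window falls inside the span.

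Cx3cr1, the fractalkine receptor, was lowest in sciatic nerve, intermediate in optic nerve and highest in brain. Sciatic nerve libraries 1 to 4 measured 293.5, 202.9, 270.6 and 201.1 CPM. Optic nerve libraries 1 to 4 measured 1887, 1546, 1775 and 2016 CPM, and brain libraries 1 to 5 measured 3366, 3703, 5367, 5257 and 5484 CPM. No library of a tissue reached the range of another tissue, and brain replicates 1 and 2, low in microglia markers, were also the lowest brain libraries here. Relative to brain the log2 fold change was -4.26 (SE 0.21, adjusted p = 4.99e-10) in sciatic nerve and -1.36 (SE 0.19, adjusted p = 5.63e-05) in optic nerve by edgeR's quasi-likelihood test. Sciatic nerve was also below optic nerve, with a log2 fold change of -2.90 (SE 0.20, adjusted p = 6.78e-08). With brain replicates 1 and 2 left out, the log2 fold change relative to brain was -4.47 in sciatic and -1.56 in optic nerve. The microglia markers moved with Cx3cr1, and the part of cell composition in its level was not tested. In bulk samples fewer cells with the transcript and less transcript per cell cannot be told apart.

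Ccr2, the receptor for Ccl2, was abundant in sciatic nerve and sparse in both central tissues. Sciatic nerve libraries measured 370.8, 472.2, 541.5 and 446.1 CPM, optic nerve libraries 11.2, 6.50, 5.80 and 14.4 CPM, and brain libraries 9.51, 0.391, 1.96, 2.31 and 5.88 CPM. Each sciatic nerve library lay far above every other one, while optic nerve and brain overlapped. The log2 fold change in sciatic nerve was 6.88 (SE 0.66, adjusted p = 5.97e-07) relative to brain and 5.59 (SE 0.68, adjusted p = 2.06e-05) relative to optic nerve, by edgeR's quasi-likelihood test. Optic nerve against brain was not called, with a log2 fold change of 1.29 (95% interval 0.09 to 2.49, adjusted p = 0.0850). That interval is not adjusted for multiple testing. The 5 brain libraries held 381 reads of the gene in all, spread unevenly from 11 to 141. Without brain replicate 1 the same comparison was called by edgeR (log2 fold change 1.86, adjusted p = 0.00984), and it was not called in any fit that left out another single library (adjusted p up to 0.211).

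Monocyte markers were set beside Ccr2, a gene that monocytes express. Of 16 listed genes 9 were tested. All 9 rose in sciatic nerve relative to brain, 7 rose when optic nerve was set against brain, and 4 rose in sciatic relative to optic nerve, where 24.1%, 19.6% and 10.9% of all genes rose. Among them Itgal, S100a6 and Spn had at most 3 reads over the brain libraries and passed the filter through the nerves, so that they were bound to be higher there. Their summed level ranged from 1077 to 1421 CPM in sciatic nerve, from 340.5 to 414.6 CPM in optic nerve and from 2.38 to 9.87 CPM in brain. In the nerves most of it was Nr4a1, which is also an immediate early gene. The other 15 genes summed to between 260.8 and 354.8 CPM in sciatic nerve, 20.7 and 71.5 CPM in optic nerve, and 1.26 and 9.42 CPM in brain. S100a6, a calcium-binding protein, measured 175.6 ± 32.4 (sciatic nerve) and 8.14 ± 4.71 CPM (optic nerve) (SD, n = 4 each). Fn1, the fibronectin gene, had the lower mean in sciatic nerve, at 8.52 ± 3.23 (sciatic nerve) and 27.5 ± 17.2 CPM (optic nerve), a difference that was not called. Ly6c2, which defines classical monocytes, was near 0, with 4 reads over the sciatic nerve libraries, 58 over the optic nerve libraries, 57 of them in replicate 2, and 3 over the brain libraries. Chil3 and Cd177, also known from the monocyte and neutrophil lineage, had 0 reads in all nerve libraries, and Ace had 0 reads in any library. Within tissues the sum of the 15 genes and Ccr2 did not always share an order. Optic nerve replicates 1 and 4 were highest in both, with sums of 58.3 and 71.5 CPM. Brain replicate 4 had the highest sum in brain, 9.42 CPM, at a Ccr2 level of 2.31 CPM, and sciatic nerve replicate 4 the highest sum in sciatic nerve, 354.8 CPM, at 446.1 CPM of Ccr2. The part of these transcripts in the Ccr2 levels was not tested.

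Dendritic cells can also express Ccr2. Of 8 tested dendritic cell markers out of 9, 5 rose and 3 fell in sciatic nerve relative to brain, 2 rose and 1 fell when optic nerve was set against brain, and 2 rose and 3 fell in sciatic relative to optic nerve. Of all genes 48.4%, 36.9% and 21.8% were called, so that the 3 of 8 for optic nerve against brain are at the share of all genes. The sum of the 9 genes ranged from 905 to 1033 CPM in sciatic nerve, from 2261 to 2936 CPM in optic nerve and from 2778 to 4158 CPM in brain. Irf8 and Siglech in this list are also expressed by microglia. Flt3, a growth factor receptor of dendritic cell precursors, averaged 4.63 ± 4.27 CPM in sciatic, 0.929 ± 0.913 in optic nerve (SD, n = 4 each) and 0.632 ± 0.342 in brain libraries (SD, n = 5). Cd209a, a lectin of dendritic cells and some macrophages, reached 358 ± 39.8 CPM in sciatic nerve and had 0 reads in brain, so that it was at least 13520-fold higher. Cd209a passed the filter on low counts through the nerve libraries, so that it was bound to be higher there than in brain. The part of dendritic cells in the Ccr2 levels was not tested.

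Ccr1, a receptor for Ccl3 and Ccl5, followed the opposite order to Cx3cr1. Sciatic nerve libraries measured 555, 609, 459 and 646 CPM, optic nerve libraries 267.7, 279.4, 208.1 and 199.2 CPM, and brain libraries 28.5, 43.2, 40.7, 35.5 and 33.6 CPM. The 3 ranges were separate. By edgeR's quasi-likelihood test the log2 fold change relative to brain was 3.96 (SE 0.18, adjusted p = 1.42e-10) in sciatic nerve and 2.71 (SE 0.17, adjusted p = 1.18e-08) in optic nerve, and 1.25 (SE 0.17, adjusted p = 7.64e-05) in sciatic relative to optic nerve.

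Cxcr4, the Cxcl12 receptor that holds leukocytes in the bone marrow, ran in the same order at lower counts. Sciatic nerve libraries measured 41.9, 34.4, 32.1 and 56.2 CPM and optic nerve libraries 4.98, 6.93, 5.41 and 4.55 CPM. The brain libraries held 0, 3, 0, 1 and 0 reads, a mean of 0.0289 CPM. The gene was thus at the edge of detection in brain, where 3 reads over the group stand for 0.0265 CPM, and clearly present in all 8 nerve libraries. The log2 fold change was 9.97 (SE 0.54, adjusted p = 1.09e-09) in sciatic nerve and 7.06 (SE 0.52, adjusted p = 8.24e-08) in optic nerve relative to brain, and 2.91 (SE 0.39, adjusted p = 5.21e-05) in sciatic relative to optic nerve, by edgeR's quasi-likelihood test. The folds relative to brain rest on 4 reads there, 3 of them in replicate 2. Without that library the log2 fold change relative to brain was 11.12 in sciatic and 8.21 in optic nerve.

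Ccrl2, the atypical chemerin receptor, rose in both nerves. Sciatic nerve libraries measured 403.7, 387.0, 367.7 and 535.9 CPM, optic nerve libraries 564.9, 512.8, 706.9 and 417.6 CPM, and brain libraries 11.5, 17.5, 18.5, 22.8 and 17.9 CPM. Every nerve library was above every brain library, and both nerves overlapped. Relative to brain the log2 fold change was 4.58 (SE 0.22, adjusted p = 2.98e-10) in sciatic nerve and 4.96 (SE 0.22, adjusted p = 4.95e-10) in optic nerve by edgeR's quasi-likelihood test. Sciatic against optic nerve was not called (log2 fold change -0.38, 95% interval -0.82 to 0.06, adjusted p = 0.226). It was called when libraries were scaled to their total counts alone (log2 fold change -0.56, adjusted p = 0.0346), a scaling that moved the median of all genes in that comparison to -0.19.

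Immediate early and dissociation response genes, like Ccr1, Cxcr4 and Ccrl2, rose in both nerves relative to brain. All 20 genes of that list rose in each nerve relative to brain, 8 of the 20 rose in sciatic relative to optic nerve, and none fell, where 24.1%, 19.6% and 10.9% of all genes rose in the same order. Ccr1 and Cxcr4 also rose in sciatic relative to optic nerve, and Ccrl2 was not called there, at a log2 fold change of -0.38. The sum of the 20 immediate early and dissociation response genes ranged from 37400 to 43680 CPM in sciatic nerve, from 19060 to 23400 CPM in optic nerve and from 865 to 1118 CPM in brain. Fosb among them had 1 read over the brain libraries and passed the filter through the nerves, so that its rise was bound to occur. The labels used here do not say how cells were isolated from each tissue, and the part of this response in the receptor levels was not tested. Ccr2 was not called between optic nerve and brain.

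**Figure D2:**
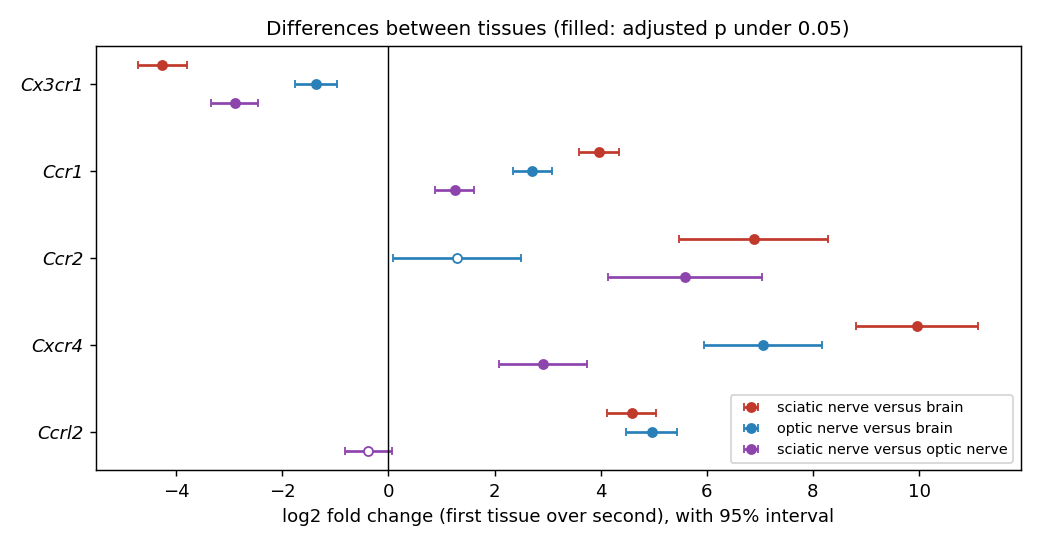
Log2 fold changes of the 5 receptors in the 3 comparisons of tissues, first tissue over second, with unadjusted 95% intervals from the edgeR fit; filled points have an adjusted p under 0.05. Cx3cr1 stands below 0 in all 3 comparisons, and the 2 open points are Ccr2 in optic nerve against brain and Ccrl2 in sciatic against optic nerve.

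To set the receptors beside each other, CPM was divided by the length of the principal transcript in GENCODE M21 (GRCm38) and each gene was given as a share of the sum over 25 chemokine receptor genes. Cx3cr1 held 9.37% ± 2.40 of that sum in sciatic nerve, 52.9% ± 5.47 in optic nerve (SD, n = 4 each) and 87.5% ± 0.641 in brain (SD, n = 5). In brain its share varied only from 86.5% to 88.2%, including the 2 libraries in which its level was low. In sciatic nerve the largest shares were those of Ccr1, with 34.2% ± 2.88, and Ccrl2, with 29.4% ± 2.83, followed by Ccr2 with 13.8% ± 2.80. Ccrl2 held 29.3% ± 5.11 in optic nerve but 0.614% ± 0.103 in brain. Ccr2 held 0.219% ± 0.0957 in optic nerve and 0.0656% ± 0.0746 in brain. With the union of all exons as the length, the share of Ccr2 in sciatic nerve was 12.2% ± 2.52 and that of Cx3cr1 in brain 88.0% ± 0.466. The annotation the authors counted with is not given in the sources used here, so the lengths are approximate.

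**Figure D3:**
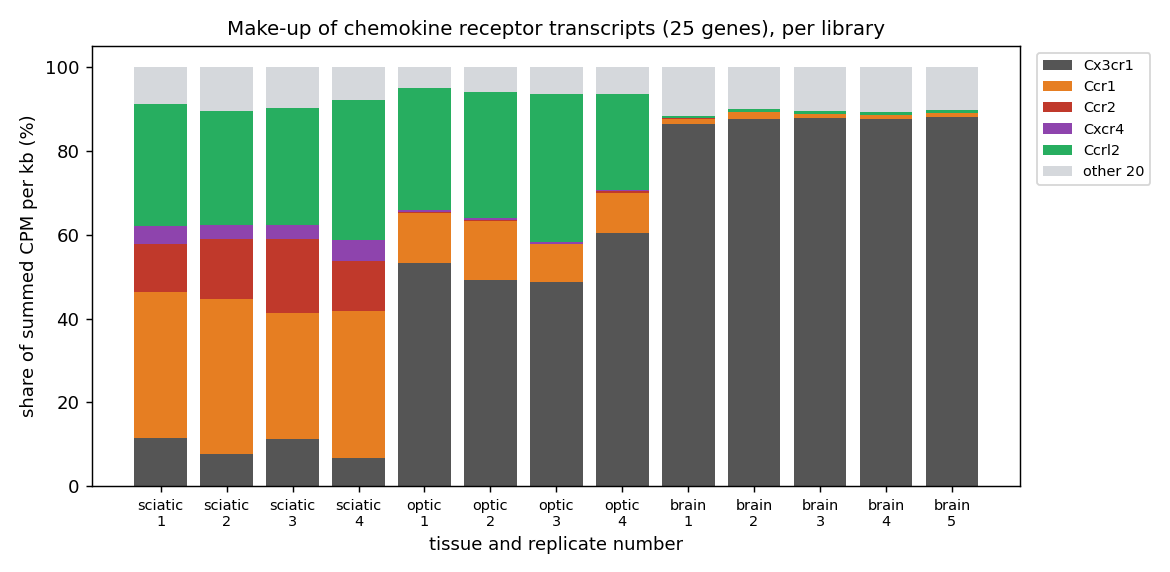
Share of each receptor gene in the summed CPM per kb of 25 chemokine receptor genes, 1 bar per library, with the 5 receptors and the sum of the other 20. Cx3cr1 fills 86.5% to 88.2% of the brain bars and 6.87% to 11.6% of the sciatic nerve bars.

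Of the other 20 chemokine receptor genes, 11 passed the filter on low counts. In sciatic nerve relative to brain 3 rose and 5 fell (median log2 fold change -1.21), in optic nerve relative to brain 2 rose and 4 fell (median -1.37), and in sciatic relative to optic nerve 2 rose and 1 fell (median -0.26), set against the shares of all genes given above. Some of the 11, such as Ccr7 in brain and Ackr3 and Ccr6 in sciatic nerve, had 0 or 1 reads in a tissue. These passed the filter through the other tissues, so that their differences were bound to be large, and the counts and medians include them. Cmklr1, the signalling receptor for chemerin, fell in both nerves relative to brain, at 20.7 ± 3.62 (sciatic nerve) and 21.7 ± 3.80 CPM (optic nerve), against 52.0 ± 24.9 CPM in brain (log2 fold changes -1.33, SE 0.29, and -1.26, SE 0.29). Brain replicate 1 raised that mean: per kb, brain replicates 1 to 5 measured 33.0, 18.2, 12.6, 13.3 and 13.1 CPM. The highest nerve libraries measured 8.20 (sciatic nerve) and 8.55 CPM per kb (optic nerve). A fold without brain replicate 1 is not reported here. Ccrl2 and Cmklr1, which share chemerin as a ligand, thus differed from brain in opposite directions in both nerves.

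Cxcr3, a receptor for interferon-induced chemokines, was raised in sciatic nerve at 26.6 ± 7.36 CPM, against 0.483 ± 0.485 CPM in optic nerve (5.75 in log2, SE 0.76) and 2.02 ± 1.37 CPM in brain (3.71 in log2, SE 0.62), and fell in optic nerve relative to brain (log2 fold change -2.04, SE 0.66). Ccr7, which guides dendritic cells to lymph nodes, had 0 reads in brain. It was at least 50.6-fold higher in sciatic nerve (1.34 ± 1.74 CPM) and at least 277.2-fold higher in optic nerve (7.34 ± 6.79 CPM). Single libraries carried much of this: sciatic nerve replicate 2 held 57 of 78 reads and optic nerve replicate 3 held 313 of 536, and without them the bounds were 17.9-fold and 149.9-fold. Xcr1, a receptor of cross-presenting dendritic cells, measured 12.5 ± 5.95 (sciatic nerve) and 7.59 ± 6.77 CPM (optic nerve), against 0.400 ± 0.479 CPM in brain (log2 fold changes 5.05, SE 1.10, and 4.33, SE 1.07). Xcr1 had 35 reads over the brain libraries and passed the filter through the nerves, so that it was bound to be higher there. Levels of Ccr7 and Xcr1 varied widely between libraries of 1 tissue.

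The receptors that fell furthest in sciatic nerve were scarce everywhere. Ackr3, a scavenging receptor for Cxcl12, and Ackr4, which scavenges the ligands of Ccr7, had 0 reads in sciatic nerve, at least 37.1-fold and at least 25.7-fold lower than in brain. Ccr6, the receptor for Ccl20, had 1 read in sciatic nerve and was 116.6-fold lower than in brain (95% counting interval 20.7 to 4627) and 112-fold lower than in optic nerve (95% counting interval 19.8 to 4457). Neither fall was uniform over libraries: Ccr6 was also at 0 in brain replicate 2 and optic nerve replicate 3, and Ackr4 in brain replicate 4. Ccr1l1, a relative of Ccr1, had 0 reads in optic nerve and was at least 44.1-fold lower there than in brain, and at least 34.7-fold higher in sciatic than in optic nerve. It was uneven in sciatic nerve, at 1.42 ± 1.64 CPM. Sciatic nerve replicates 2 and 3 had 0 reads of it, as all optic nerve libraries did, so that the difference rests on replicates 1 and 4. The bound was 22.4-fold without sciatic nerve replicate 4. Ccr8 and Cxcr1 had 0 reads in all 13 libraries, and Ccr10 had 0 reads in sciatic nerve. Ccr4 had 0 reads in optic nerve and brain, and Ackr1 and Ackr2 had 0 reads in optic nerve. These intervals and bounds cover counting error only.

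Ccr1 and Ccr2 belong to a cluster of receptor genes on chromosome 9, with starts 133.3 kb apart. Among other protein-coding genes with a start within 300 kb, Xcr1 rose in both nerves relative to brain, with the limit of the filter given above. Ccr3 was called in no comparison (log2 fold changes from -1.37 to 2.08), and Cxcr6 was not tested. Fyco1, which links autophagosomes to microtubule motors, fell in both nerves relative to brain (log2 fold changes -1.28, SE 0.45, and -1.66, SE 0.46). Genes of this cluster are similar in sequence, and how the authors counted a read with more than 1 match is not given here, so their counts are uncertain to that extent. Ccrl2 and Cx3cr1 lie on the same chromosome at 13044.4 and 4032.1 kb from Ccr2, counted between the GENCODE starts. No other GENCODE gene overlapped the RefSeq span of any of the 5 receptors. The longer GENCODE model of Cx3cr1 (chr9:119901616-120069879) overlapped 9 other genes, and whether the authors counted with it or by strand is not known here.

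**Figure D4:**
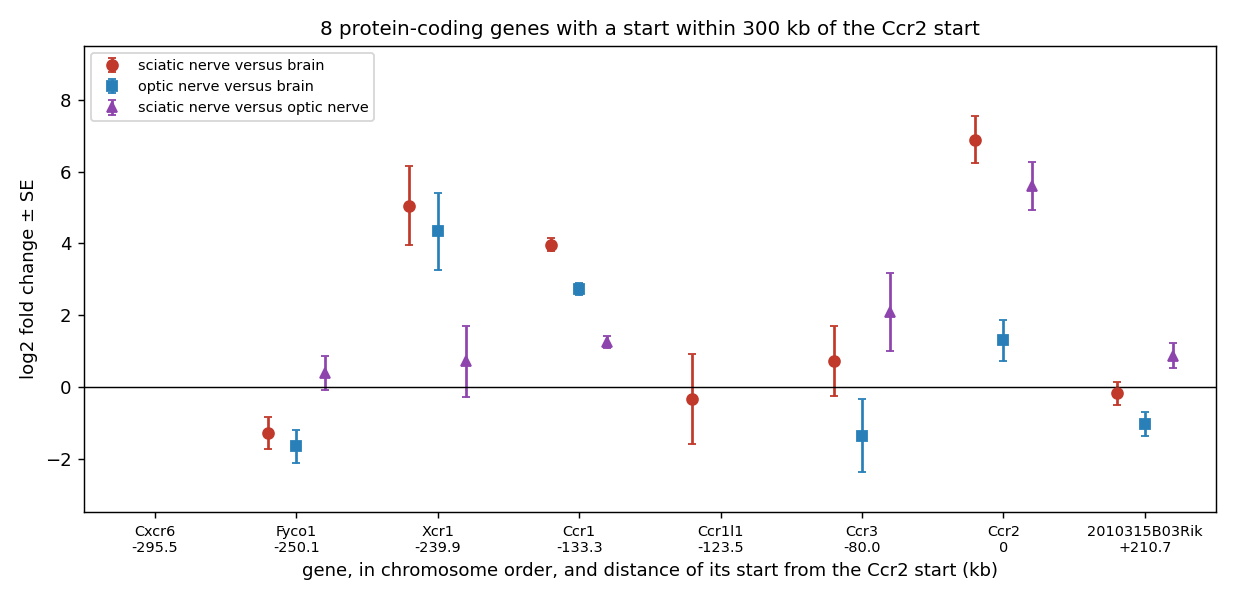
Log2 fold changes with SE of 8 protein-coding genes whose start lies within 300 kb of the Ccr2 start, in chromosome order with the distance in kb, for the 3 comparisons (first tissue over second). Cxcr6 was not tested, and comparisons of Ccr1l1 with optic nerve, where it had 0 reads, are not drawn; Ccr2 stands at 6.88 and Ccr1 at 3.96 for sciatic nerve against brain, with Fyco1 at -1.28.

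Ligands of the 5 receptors were more abundant in the nerves. Of 12 tested ligand genes out of 13, 10 rose and 1 fell in sciatic nerve relative to brain (median log2 fold change 5.44), 10 rose and none fell in optic nerve relative to brain (median 2.98), and 7 rose and 2 fell in sciatic relative to optic nerve (median 2.25). Among all genes 48.4%, 36.9% and 21.8% were called, with medians of -0.09, -0.08 and 0.0029. Ccl7 and Ccl8 were scarce in brain and passed the filter through the nerves, so that they were bound to be higher there. Cx3cl1 was scarce in optic nerve and brain and passed it through sciatic nerve, with the same limit. The immediate early genes, whose sums are given above, rose in the same comparisons, and their part in the ligand levels was not tested.

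Ccl2, Ccl7 and Ccl8, ligands of Ccr2, were highest in sciatic nerve. Ccl2 measured 7669 ± 1741 CPM in sciatic, 678 ± 145 in optic nerve (SD, n = 4 each) and 3.62 ± 2.32 in brain libraries (SD, n = 5). Ccl7 measured 8175 ± 1720 CPM in sciatic, 325 ± 91.3 in optic nerve and 0.322 ± 0.338 in brain libraries. Relative to brain the log2 fold change of Ccl2 was 11.02 (SE 0.54) in sciatic and 7.52 (SE 0.47) in optic nerve, and that of Ccl7 was 14.52 (SE 0.64) and 9.87 (SE 0.57). Ccl8 rose in sciatic nerve to 174.8 ± 82.7 CPM, against 3.64 ± 2.14 in optic nerve and 0.05004 ± 0.112 CPM in brain. Unlike their receptor, these ligands were also called higher in optic nerve than in brain. For Ccl7 and Ccl8 a rise over brain was bound to occur, as they passed the filter through the nerves.

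Ccl3 and Ccl4 rose in both nerves relative to brain. Ccl3, a ligand of Ccr1, measured 4277 ± 1226 CPM in sciatic, 3489 ± 759 in optic nerve (SD, n = 4 each) and 17.1 ± 9.25 in brain libraries (SD, n = 5). Sciatic against optic nerve was not called for it (log2 fold change 0.29, SE 0.34). Ccl4, a related CC chemokine, measured 5363 ± 1362 CPM in sciatic, 7757 ± 1502 in optic nerve and 32.0 ± 27.4 in brain libraries. Ccl5 fell in sciatic relative to optic nerve, at 2.86 ± 1.52 against 17.9 ± 8.52 CPM (log2 fold change -2.64, SE 0.84).

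Cxcl12, the ligand of Cxcr4, was found in sciatic nerve libraries at 108 ± 10.8 CPM, against 0.715 ± 1.17 CPM in optic nerve (7.24 in log2, SE 1.0065) and 0.813 ± 0.774 CPM in brain (6.96 in log2, SE 0.89). Stromal cells are a known source of Cxcl12, and 5 of the 6 fibroblast markers passed the filter. These 5 had 0 to 5 reads each over the brain libraries and 5 to 57 over the optic nerve libraries, and passed through sciatic nerve, so that they were bound to be higher there. The sum of the list ranged from 26.6 to 153.3 CPM in sciatic nerve, from 0.112 to 3.55 CPM in optic nerve and from 0 to 0.284 CPM in brain, and the part of such cells in the Cxcl12 level was not tested. Cx3cl1, the ligand of Cx3cr1, was low throughout, at 4.08 ± 1.47 CPM in sciatic, 0.149 ± 0.203 in optic nerve and 0.372 ± 0.273 in brain libraries, and rose in sciatic nerve relative to both. Mif, a cytokine that can bind Cxcr4, fell in sciatic nerve to 8.56 ± 0.808 CPM, against 22.1 ± 1.04 in optic nerve and 14.1 ± 3.82 CPM in brain. Rarres2, the chemerin gene, was not tested and had 25 reads in sciatic nerve, 1 in optic nerve and 0 in brain.

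Genes that carry or end the receptor signal were called in both directions. Of 27 tested genes out of 28 listed, 11 rose and 9 fell in sciatic nerve relative to brain (median log2 fold change 0.11), 7 rose and 5 fell in optic nerve relative to brain (median 0.15), and 4 rose and 6 fell in sciatic relative to optic nerve (median 0.02). Of all genes 48.4%, 36.9% and 21.8% were called in these comparisons, so that the 12 of 27 called for optic nerve against brain are near the share of all genes. The listed symbol Grk2 was not found, and its older symbol Adrbk1 was. Rgs18, a regulator that speeds up the switching off of G proteins, had 0 reads in brain and was at least 4115-fold higher in sciatic nerve (109 ± 9.06 CPM) and at least 151.4-fold higher in optic nerve (4.01 ± 3.54 CPM), or at least 94.0-fold without optic nerve replicate 4. Rgs18 passed the filter through the nerve libraries, so that it was bound to be higher there than in brain. Rgs1, of the same family, rose to 146.4 ± 66.1 (sciatic nerve) and 292.3 ± 52.1 CPM (optic nerve), against 16.1 ± 3.35 CPM in brain, and was lower in sciatic than in optic nerve (log2 fold change -0.997, SE 0.27). Gnb1, a G protein beta subunit, rose by 1.62 (SE 0.13) in log2 in sciatic and by 1.36 (SE 0.13) in optic nerve relative to brain, and the receptor kinase gene Grk5 by 4.04 (SE 1.12) in sciatic nerve.

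Several signalling genes were lower in the nerves. Elmo1, part of the machinery that activates Rac in moving cells, measured 115.5 ± 18.9 CPM in sciatic, 246.6 ± 27.3 in optic nerve (SD, n = 4 each) and 549.9 ± 173.8 in brain libraries (SD, n = 5). Its log2 fold change relative to brain was -2.25 (SE 0.23) in sciatic and -1.16 (SE 0.22) in optic nerve. Plcb2, a phospholipase downstream of G proteins, fell in sciatic nerve relative to brain (log2 fold change -2.48, SE 0.39) and relative to optic nerve (-2.11, SE 0.40). Pik3cg, the catalytic subunit of the kinase that G proteins activate, fell in optic nerve relative to brain (log2 fold change -1.59, SE 0.27), and Rgs2 fell in both nerves (log2 fold changes -1.54, SE 0.23, in sciatic and -1.002, SE 0.22, in optic nerve). Between the nerves, Rgs10 (log2 fold change -1.44, SE 0.21) and the kinase gene Ptk2b (log2 fold change -1.13, SE 0.16) were lower in sciatic nerve, and Rgs18 (log2 fold change 4.76, SE 0.63), Gng2 (log2 fold change 0.97, SE 0.23) and Rgs14 (log2 fold change 0.97, SE 0.32) were higher.

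The genes whose profile was most like that of each receptor were found as those with the smallest root mean square difference of centred log2 CPM over the 13 libraries. For Cx3cr1 these were Slc12a2 (0.246 in log2), Selplg (0.284) and P2ry13 (0.306). Selplg measured 229.7 ± 45.9 CPM in sciatic, 2567 ± 469 in optic nerve (SD, n = 4 each) and 5639 ± 1129 in brain libraries (SD, n = 5). For Ccr1 they were Klf6 (0.218), C5ar1 (0.236) and Tpm4 (0.242), and for Ccrl2 Ezr (0.276), Gadd45a (0.335) and Tnfrsf12a (0.387). Cxcr4 had Lyz2 (0.436), Clec4d (0.492) and Ier3 (0.510) nearest to it. Lyz2, the lysozyme of macrophages, measured 28900 ± 3247 CPM in sciatic, 4095 ± 486 in optic nerve and 158.6 ± 39.98 in brain libraries. The nearest genes to Ccr2 were less close, with Pfkp at 0.862, Arpin at 0.885 and Maoa at 0.946. Among the 5 receptors the closest pair was Ccr1 and Ccrl2 (0.983) and the farthest Cx3cr1 and Cxcr4 (5.25).

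Markers of cell types not yet named were mostly low. The sum of 9 neutrophil markers was at most 3.02 CPM in sciatic, 0.553 in optic nerve and 0.233 in brain libraries, and S100a8, Ly6g, Mpo and Elane had 0 reads in every library. Lymphoid markers (11 genes) summed to at most 3.33 CPM in sciatic, 5.32 in optic nerve and 0.250 in brain libraries, and mast cell markers (6) to at most 10.4, 0 and 0.0755 CPM in the same order. Schwann cell and myelin markers (9) ranged from 1093 to 1232 CPM in sciatic nerve, from 662 to 887 CPM in optic nerve and from 387 to 800.1 CPM in brain. Endothelial markers (6) summed to at most 8.92, 15.6 and 48.1 CPM, and astrocyte and neuron markers (6) to at most 2.03, 104 and 249.7 CPM, in the same order.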

How the data were processed

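The authors deposited unnormalized counts of reads for each gene symbol. The submitters' processing notes name STAR, featureCounts 1.5.1 and the build mm10. Annotation, strand setting and the handling of multi-mapping reads are not given. The nerve columns carry tissue initials and replicate numbers, and the brain columns were assigned by elimination. The number of per-sample columns not used is 0.

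Tests used edgeR 4.0.16 in R 4.3.3. After filterByExpr by tissue 13246 of 48587 genes were left, and TMM factors scaled the libraries. A single quasi-likelihood model with a term for tissue, and no replicate block, was fitted to all 13 libraries and gave the 3 contrasts. P-values were adjusted by Benjamini-Hochberg over all tested genes, with 0.05 as the threshold for a call, and rose, fell, higher and lower refer to called genes. Standard errors and intervals come from the fit. Log2 CPM used a prior count of 2. A count of 0 over a tissue allows a level (3 counts) of up to 0.0511 CPM for sciatic nerve, 0.0409 for optic nerve and 0.0265 for brain, and folds against 0 use that floor. A fold against 1 to 3 counts has an exact 95% counting interval. Duplicate reads are not independent molecules, so these limits cover counting error only. The test was also run on counts simulated from its own fitted spread. Few genes were changed there, equally in both directions, so that run cannot check the scaling of these libraries. Positions and lengths come from GENCODE M21 and RefSeq, both GRCm38, which is mm10.

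The receptors, gene lists, tests and alternatives (RLE and total-count scaling, no filter, DESeq2 1.42.0, the 2 tissues alone, replicate block, each library left out, brain replicates 1 and 2 left out) were chosen with earlier results of these data known. Named were the 5 receptors, for each list and comparison the 3 called genes with the largest rise and fall, genes with 0 reads in a tissue, the 3 genes nearest in profile and marker genes. Cmklr1 and the neighbours Fyco1, Ccr3 and Cxcr6 fall outside that rule and were chosen after their values were seen. Values of some genes that the rule names are not reported here.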

Additional observations from a re-analysis of the deposited data

How the results depend on the processing

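Of 360 recomputed values (18 results under 20 alternatives each), 356 kept their direction and their side of the threshold, or for counts of called receptor genes stayed within 1.5 times, and none reversed. The 360 include fits that left out a library of a tissue not in the comparison, where little change is to be expected. The 4 exceptions were all gains of a call. Ccr2 in optic nerve against brain, not called at a log2 fold change of 1.29, was called without brain replicate 1 and when brain replicates 1 and 2 were both left out (1.49, adjusted p = 0.00854), and its values ranged from 0.98 to 1.86 when each library was left out in turn. It was also called with the replicate block (1.77, adjusted p = 0.0440). Ccrl2 in sciatic against optic nerve was called with total counts only (-0.56, adjusted p = 0.0346). The causes were not tested. No pairing by replicate number was seen: the 12 same-numbered pairs correlated at -0.0776 to 0.0773 in their deviations from the tissue means, and 2 of 12 libraries were closest to their own number. Pairs with different numbers spanned -0.0982 to 0.0982. The labels do not name animals, and such correlations cannot tell whether same-numbered libraries share one. With total counts only, the share of higher calls fell to 31.2%, 37.1% and 35.8% for sciatic nerve against brain, optic nerve against brain and sciatic against optic nerve, against 49.8%, 52.9% and 50.03% with TMM, and the median of all genes moved to -0.53, -0.33 and -0.19. Counts of called receptor genes, over the 5 receptors and the 11 others that were tested, were 13, 10 and 7. Of all tested genes 48.4%, 36.9% and 21.8% were called in the same order. These receptor counts ranged from 11 to 13, from 9 to 11 and from 5 to 9 over the alternatives, which did not all test the same genes. DESeq2 and edgeR called the same side for every one of the 15 receptor comparisons. Depth limits Cxcr4 in brain, with 4 reads over 5 libraries.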
